A study of Mus musculus with 9 samples.

Results

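The MHC class I pathway was followed in sorted mouse colon macrophages through 10 genes, taken by symbol from the 42454 genes of the deposited table: H2-K1, H2-D1, B2m, Tap1, Tap2, Tapbp, Psmb8, Psmb9, Psmb10 and Nlrc5. All 10 were found, and all 10 passed the filter on low values (10 or more normalized counts in 3 or more libraries), which left 14404 genes to test. The study compared gp91phox-/- mice, p47phox-/- mice and wild-type (WT) mice, with 3 RNA-seq libraries per genotype. All mice were 6 weeks old, and the cells were macrophages with low Ly6C and with MHC class II, sorted from the lamina propria of the colon, the connective tissue under the gut epithelium. gp91phox, encoded by Cybb, is the membrane-bound catalytic subunit of the phagocyte NADPH oxidase, the enzyme that makes superoxide, and p47phox, encoded by Ncf1, is a cytosolic subunit needed for its assembly. The strain, the sex and the number of animals behind each library are not stated in the labels.

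MHC class I molecules show peptides from proteins made inside the cell to CD8 T cells. The proteasome cuts those proteins, the TAP transporter carries the peptides into the endoplasmic reticulum, and there they are loaded onto a heavy chain paired with beta-2 microglobulin. Interferon-gamma, acting in part through IRF1, raises many genes of this pathway and brings in 3 immunoproteasome subunits that replace their constitutive counterparts. NLRC5 is the main transactivator of MHC class I genes. It does not bind DNA itself and is recruited to class I promoters by factors bound to a conserved module of X and Y boxes. Gut macrophages are known for high MHC class II, and they also carry class I, as nearly all nucleated cells do.

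Assigned reads numbered 31141107 to 52797368 per library, and between 1615 and 219102 reads lay on each of the 10 genes in each library. Replicates 2 and 3 of p47phox-/- had reads on 14323 and 14268 genes, against 17754 in p47phox-/- replicate 1 and 15825 to 18760 in the libraries of the other genotypes, so calls of class I and related genes that were lost without them are given as such, by gene or by count. Macrophage markers summed to 459738 to 595002 normalized counts in gp91phox-/-, 433124 to 541902 in p47phox-/- and 365685 to 513671 in WT, with no marker at 0. Ncf1, the gene targeted in p47phox-/-, had 13039.5 ± 793 normalized counts in gp91phox-/-, 3195 ± 510.4 in p47phox-/- and 9957 ± 918 in WT (SD, n = 3 each). Cybb was listed at 0 in all 9 libraries, so this gene gives no check of the gp91phox-/- labels.

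Promoter stretches of H2-K1, H2-D1 and B2m are shown first, because they held the letters of an X box and a Y box at the same spacing. Each lies just before the RefSeq start and is read on the gene's own strand (RefSeq, GRCm38.p6). Of the 10 genes, 8 had a promoter entry, which runs from 250 bases before the start to 50 bases after it. Letters were searched on both strands, with motifs chosen after these promoters had been read. They were the X2 core TGACG, the Y box CCAAT, an interferon response sequence written as GAAANNGAA or GAANNGAAA, and a kappa B sequence GGGNNTTCC. Capitals mark a TGACG with the ATTGG that follows it and each match to the interferon and kappa B letters, and no marked stretch overlaps another. The window of H2-K1 is chr17:34000354-34000463 on the minus strand, from 116 to 7 bases before the start. The window of H2-D1 is chr17:35262918-35263027 on the plus strand, from 176 to 67 bases before the start. The window of B2m is chr2:122147543-122147643 on the plus strand, from 144 to 44 bases before the start.
H2-K1: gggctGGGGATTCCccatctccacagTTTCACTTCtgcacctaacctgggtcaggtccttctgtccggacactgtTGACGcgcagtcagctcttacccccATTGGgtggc
H2-D1: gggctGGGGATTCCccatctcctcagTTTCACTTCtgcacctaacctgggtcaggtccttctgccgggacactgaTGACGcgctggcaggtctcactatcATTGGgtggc
B2m: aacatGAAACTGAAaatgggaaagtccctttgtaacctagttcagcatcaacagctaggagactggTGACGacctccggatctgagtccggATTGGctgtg

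In all 3 windows TGACG stood 20 bases before ATTGG, the Y box read on the other strand. A TGACG followed by ATTGG after 15 to 25 bases was present in 143 of 32851 promoter entries (0.435%), and in 3 of the 8 class I pathway promoters. The motifs were chosen after these promoters had been read, and the windows of H2-K1 and H2-D1 are much alike. These figures are therefore a description and no test of enrichment. Taken alone, the letters were common. TGACG was in 20.8% of all promoter entries, CCAAT in 37.4%, the interferon response letters in 14.8% and the kappa B letters in 5.82%. H2-K1 and H2-D1 each had 1 match to the interferon letters and 1 to the kappa B letters, and B2m had 1 match to the interferon letters.

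Tap1 and Psmb9 lie head to head, and their shared promoter is shown because these genes were the most alike of the 10 in the data below. Their RefSeq starts are 226 bases apart on opposite strands, and the sequence runs from the first base of Psmb9 to the first base of Tap1, at chr17:34187330-34187556, read on the plus strand in the direction of Tap1.
Tap1 and Psmb9: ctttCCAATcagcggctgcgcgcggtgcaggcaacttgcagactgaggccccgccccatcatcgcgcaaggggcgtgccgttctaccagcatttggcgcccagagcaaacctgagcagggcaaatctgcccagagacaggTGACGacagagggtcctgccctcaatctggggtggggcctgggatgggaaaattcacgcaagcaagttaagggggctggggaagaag
Capitals mark its matches. It held 1 TGACG and 1 CCAAT, 0 matches to the interferon letters and 0 to the kappa B letters.

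Of the 10 genes, 7 lie on chromosome 17, 2 (Psmb10 and Nlrc5) on chromosome 8 and B2m on chromosome 2, all annotated as protein-coding in GENCODE M21 (GRCm38). H2-K1 spans chr17:33996017-34000347 on the minus strand, H2-D1 chr17:35262730-35267499 on the plus strand and B2m chr2:122147686-122153083 on the plus strand. Psmb9 (chr17:34181987-34187764, minus strand), Tap1 (chr17:34187553-34197225, plus strand), Psmb8 (chr17:34197721-34201454, plus strand) and Tap2 (chr17:34203527-34216321, plus strand) are neighbours. The GENCODE spans of Psmb9 and H2-D1 begin upstream of the RefSeq starts used above, so the printed windows of these genes lie inside them. By the GENCODE spans Tap1 and Psmb9 overlap, while their RefSeq starts are 226 bases apart. Tapbp lies at chr17:33915899-33929292 on the plus strand, Psmb10 at chr8:105935735-105938444 on the minus strand and Nlrc5 at chr8:94434356-94527272 on the plus strand. Neither the labels nor the processing notes say which strand was counted, so reads from the 212 exonic bases that Tap1 and Psmb9 share on opposite strands (3.87% of the exonic length of Tap1 and 5.79% of that of Psmb9) cannot be told apart. Exonic bases shared with other genes made up 29.0% of Tapbp, 18.5% of Tap2 and 14.7% of Psmb8. Of all stretches of 50 bases in their transcripts, 9.63% in H2-K1 and 12.8% in H2-D1 also occur in other genes. For H2-K1 these were most often H2-Q10, H2-D1 and H2-Q7, and for H2-D1 they were H2-Q1, H2-K1 and H2-Q7. How far this sharing bears on the counts of these heavy chains was not tested. For stretches of 100 bases the shares were 0.957% and 3.59%.

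The class I chains were among the abundant transcripts of these cells. H2-K1, H2-D1 and B2m together took 0.957 to 1.07% of all assigned reads in gp91phox-/-, 1.05 to 1.22% in p47phox-/- and 0.870 to 1.07% in WT. Levels per kilobase of exon (normalized counts per kb, mean of 3 libraries) put B2m first, with 97272 ± 4667 in gp91phox-/-, 81216 ± 5767 in p47phox-/- and 78768 ± 6964 in WT (SD). H2-D1 came second, with 47575 ± 3197, 63696 ± 9096 and 48678 ± 7977 per kb in the same order of genotypes, and then H2-K1, with 37288 ± 4353, 38554 ± 4771 and 30504 ± 5071 per kb. Tapbp followed at 3723 ± 342 per kb in gp91phox-/-, 3289 ± 114 in p47phox-/- and 3253 ± 358 in WT. Psmb8, Psmb10 and Tap2 could not be ranked, since their libraries overlapped in each genotype, with group means between 1404 and 2036 per kb. Tap1 (1241 ± 229 per kb in gp91phox-/-, 991 ± 12.4 in p47phox-/- and 757 ± 71.3 in WT), then Psmb9, then Nlrc5 were lowest. Nlrc5 had 427 ± 93.1 per kb in gp91phox-/-, 302 ± 77.6 in p47phox-/- and 235 ± 25.8 in WT. Except where per kb is stated, values from here on are normalized counts of a gene, and fold changes are differences of log2(normalized count + 1).

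**Figure D1:**
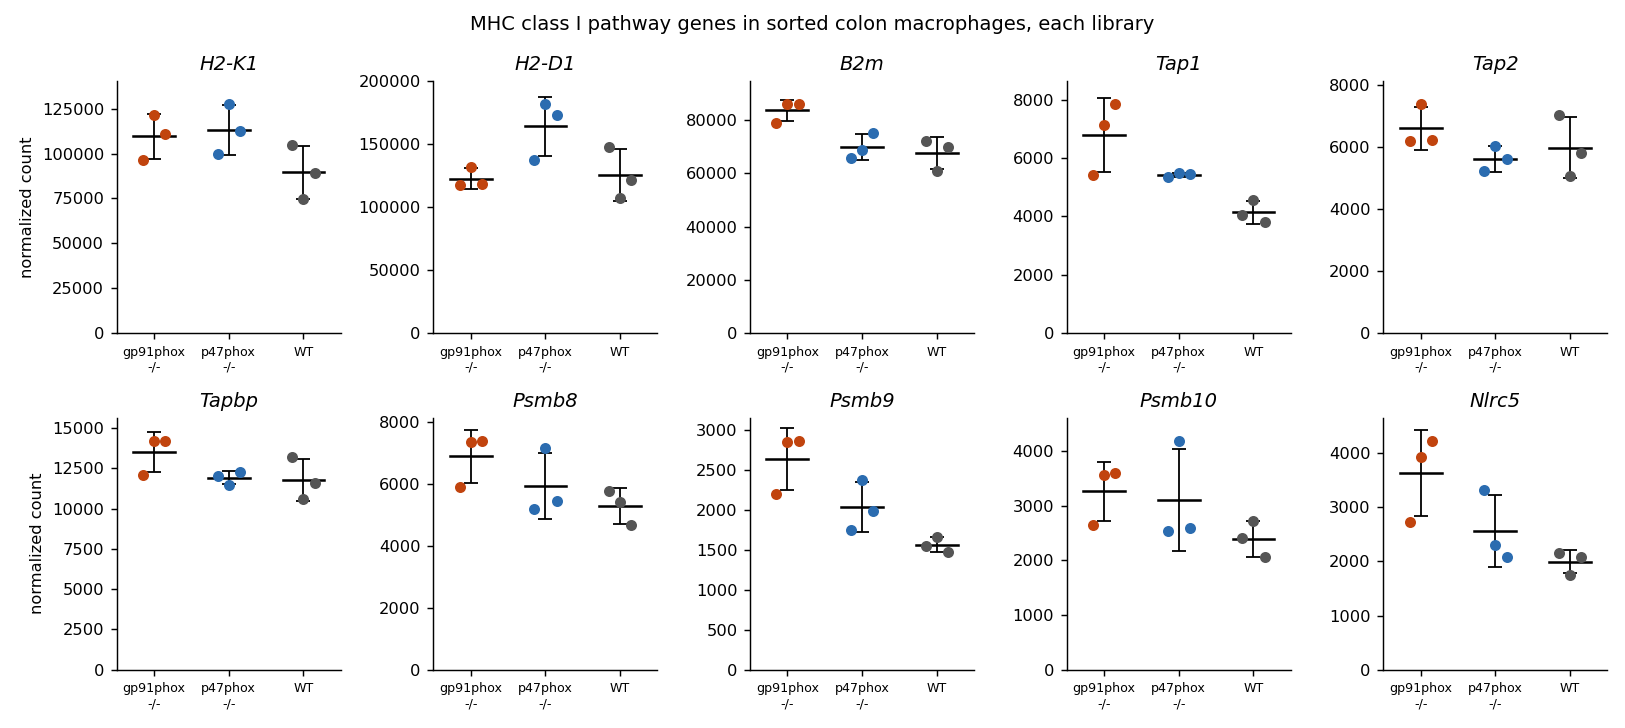
Normalized count (each axis from 0) of the 10 class I pathway genes in each library of gp91phox-/-, p47phox-/- and WT; points are libraries, wide bars are means and whiskers are SD (n = 3). Tap1 and Psmb9 separate all 3 gp91phox-/- libraries from all 3 WT libraries, while the libraries of H2-D1 in these genotypes overlap.

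In gp91phox-/- macrophages the transporter subunit Tap1, the immunoproteasome subunit Psmb9 and the transactivator Nlrc5 rose relative to WT, by 1.62-fold, 1.68-fold and 1.79-fold. The other 7 genes, among them the heavy chains H2-K1 and H2-D1 and the light chain B2m, did not pass the test. The 3 genes called higher (limma adjusted p under 0.05) were 3 of 10, and 0 were called lower. Of all 14404 genes tested, 7.05% were called in either direction and 2.53% were called higher. The log2 fold change was above 0 for 9 of the 10 genes, with a median of 0.34, beside a median of 0.01 over all genes tested. In 5 of the 10 genes (B2m, Tap1, Psmb8, Psmb9 and Nlrc5) each gp91phox-/- library lay above each WT library, which held for 15.1% of all genes tested.

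Among the chains, H2-K1, a classical heavy chain, had 96189, 121675 and 110796 normalized counts in gp91phox-/-, against 104598, 74801 and 89460 in WT. The libraries overlapped, and the log2 fold change of 0.30 (SE 0.19, limma adjusted p = 0.403) was not called. H2-D1, the other classical heavy chain measured here, had 117433, 132196 and 118455 normalized counts in gp91phox-/-, against 147772, 107174 and 121671 in WT. Here too the libraries overlapped, with a log2 fold change of -0.02 (95% interval -0.44 to 0.39), whose sign turned under TMM scaling and in some fits with a library left out. B2m, the light chain of every class I molecule, had 79021, 86058 and 85884 normalized counts in gp91phox-/-, against 72324, 60964 and 69934 in WT. All 3 gp91phox-/- libraries were above all 3 WT libraries, but the log2 fold change of 0.31 (SE 0.15, limma adjusted p = 0.258) did not pass.

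Among the genes of peptide transport and loading, Tap1 was called and Tap2 and Tapbp were not. Tap1 had 5410.2, 7120 and 7859 normalized counts in gp91phox-/-, against 4039, 4578 and 3819 in WT. The lowest gp91phox-/- library was above the highest WT library, and the log2 fold change was 0.70 (SE 0.15, 95% interval 0.38 to 1.02, limma adjusted p = 0.0120). Tap2, the partner of Tap1 in the transporter, had 6196, 7403 and 6240 normalized counts in gp91phox-/-, against 7045 in WT replicate 1 and 5086 and 5823 in the others. Its libraries overlapped, with a log2 fold change of 0.15 (95% interval -0.16 to 0.46, limma adjusted p = 0.597). Tapbp encodes tapasin, which holds empty class I molecules at the transporter. Its log2 fold change was 0.20 (95% interval -0.08 to 0.47, limma adjusted p = 0.420), with 12075 to 14228 normalized counts in gp91phox-/- and 10601.5 to 13181 in WT.

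Among the immunoproteasome subunits, Psmb9 (LMP2) had 2193, 2845 and 2863 normalized counts in gp91phox-/-, against 1543, 1662 and 1477 in WT. The groups did not overlap, and the log2 fold change was 0.75 (SE 0.15, 95% interval 0.41 to 1.08, limma adjusted p = 0.0112). Psmb8 (LMP7) had 5900, 7359 and 7389 normalized counts in gp91phox-/-, against 5779, 5402 and 4662 in WT. The gap between its groups was narrow, and the log2 fold change of 0.38 (SE 0.15, limma adjusted p = 0.173) was not called. Psmb10 (MECL-1) had 2641, 3555 and 3593 normalized counts in gp91phox-/-, against 2410, 2713 and 2060 in WT. Replicate 1 of gp91phox-/- lay within the WT range, and the log2 fold change was 0.44 (SE 0.20, limma adjusted p = 0.228).

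Nlrc5 had 2733, 3927 and 4228 normalized counts in gp91phox-/-, against 2153, 1746 and 2089 in WT. Each gp91phox-/- library was above each WT library, with a log2 fold change of 0.84 (SE 0.20, 95% interval 0.41 to 1.28, limma adjusted p = 0.0251). Replicate 1 was the lowest of the gp91phox-/- libraries in all 10 genes.

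The calls of Tap1, Psmb9 and Nlrc5 in gp91phox-/- versus WT were also made by edgeR's quasi-likelihood test and by DESeq2 on the recovered reads, and without p47phox-/- replicates 2 and 3. They were lost, to 0 of 10, without gp91phox-/- replicate 2, without gp91phox-/- replicate 3 or without WT replicate 3, where limma's adjusted p for Tap1 was 0.0598, 0.0596 and 0.0576, for Psmb9 0.0607, 0.0553 and 0.0501, and for Nlrc5 0.107, 0.106 and 0.0651. Nlrc5 was also not called without WT replicate 1 or WT replicate 2 (limma adjusted p = 0.0592 and 0.101). All 3 calls were lost when the variances did not follow the mean level (limma adjusted p of 0.0553 to 0.105).

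**Figure D2:**
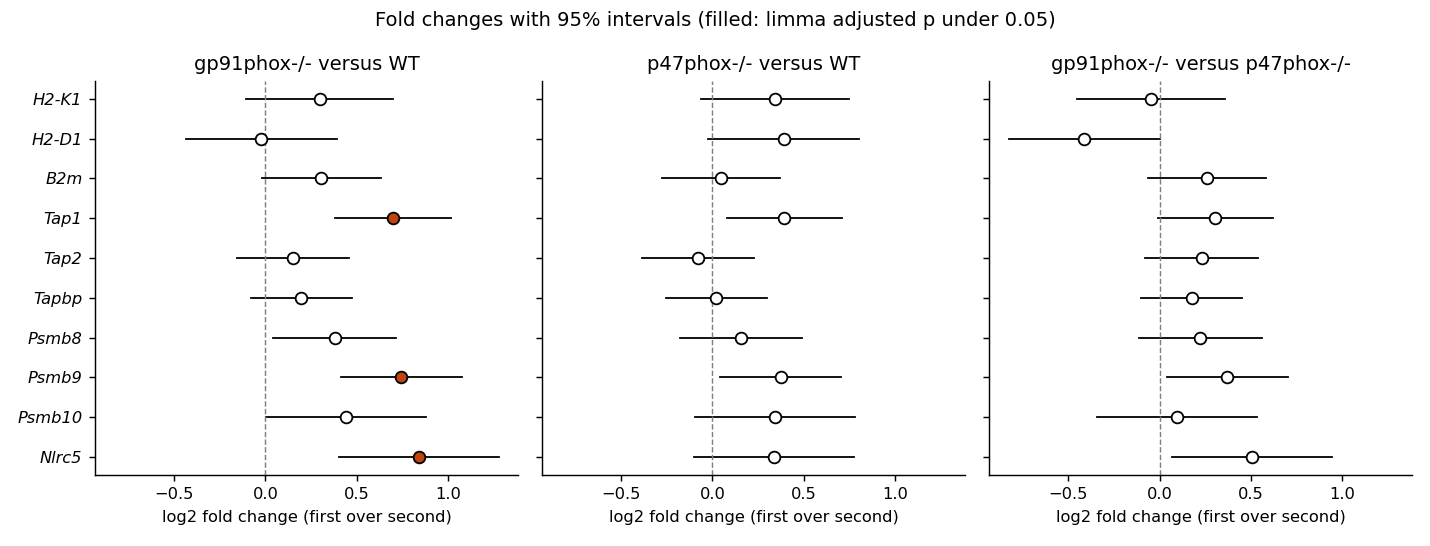
Log2 fold change of the 10 class I pathway genes in gp91phox-/- versus WT, p47phox-/- versus WT and gp91phox-/- versus p47phox-/-; points are limma estimates from 3 libraries per genotype, lines are 95% intervals and filled points have an adjusted p under 0.05. Tap1, Psmb9 and Nlrc5 are filled in gp91phox-/- versus WT, and no point is filled in the other panels.

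In p47phox-/- macrophages none of the 10 genes was called against WT. limma called 0 of 10, with 2 of 10 (Tap1 and Psmb9) at an unadjusted p under 0.05, and edgeR and DESeq2 each called 0. Over all genes tested 1.12% were called in either direction. The log2 fold change was above 0 for 9 of the 10 genes, with a median of 0.34, beside -0.02 over all genes tested. This comparison and the one above share the WT libraries. In Tap1 and Psmb9 each p47phox-/- library lay above each WT library, which held for 9.25% of all genes tested.

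Tap1 had 5353, 5484 and 5448 normalized counts in p47phox-/-, against 4039, 4578 and 3819 in WT. The p47phox-/- libraries were nearly alike and all above WT, with a log2 fold change of 0.39 (SE 0.15, 95% interval 0.08 to 0.71, limma adjusted p = 0.229). Psmb9 had 1752, 2370.3 and 1987 normalized counts in p47phox-/-, against 1543, 1662 and 1477 in WT, with a log2 fold change of 0.37 (SE 0.15, 95% interval 0.04 to 0.71, limma adjusted p = 0.278). Nlrc5 had 3315 normalized counts in p47phox-/- replicate 1 and 2299 and 2078 in replicates 2 and 3, against 1746 to 2153 in WT. Replicate 1 was high and replicate 3 lay within the WT range, with a log2 fold change of 0.34 (95% interval -0.10 to 0.77, limma adjusted p = 0.450).

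H2-D1 had its highest values in p47phox-/-, with 137690, 182072 and 173051 normalized counts, against 147772, 107174 and 121671 in WT. WT replicate 1 reached into the p47phox-/- range, and the log2 fold change of 0.39 (SE 0.19, limma adjusted p = 0.360) was not called. H2-K1 had 99689, 127688 and 112441 normalized counts in p47phox-/-, against 74801 to 104598 in WT, with a log2 fold change of 0.34 (limma adjusted p = 0.404). B2m (log2 fold change 0.05), Tapbp (0.02) and Tap2 (-0.08) lay near 0, with limma adjusted p of 0.831 to 0.958. B2m had 65596, 68646 and 75296 normalized counts in p47phox-/-, Tapbp 12022, 11479 and 12292, and Tap2 5221, 6032 and 5615, in ranges that overlap those of WT. The signs of these 3 small differences turned in some of the other fits.

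Psmb8 had 5188, 7149 and 5440 normalized counts in p47phox-/-, and Psmb10 2540, 4187 and 2591, so replicate 2 stood above the other 2 libraries in both. Their log2 fold changes against WT were 0.16 (limma adjusted p = 0.668) and 0.34 (limma adjusted p = 0.443). Without p47phox-/- replicates 2 and 3, where the lone remaining library was taken to vary like the other groups, 0 of the 10 genes were called, and the log2 fold change was -0.04 for B2m and -0.02 for Psmb8.

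Set directly against each other, the knockouts showed no difference that passed the test in any of the 10 genes. limma called 0 of 10 in gp91phox-/- versus p47phox-/-, with 2 of 10 (Psmb9 and Nlrc5) at an unadjusted p under 0.05, and edgeR and DESeq2 each called 0, while 9.93% of all genes tested were called in either direction. The rise of Tap1, Psmb9 and Nlrc5 in gp91phox-/- was therefore not shown to differ from the change in p47phox-/-. Nlrc5 was higher in gp91phox-/- by 0.51 on the log2 scale (95% interval 0.07 to 0.94, limma adjusted p = 0.134), and the libraries overlapped because p47phox-/- replicate 1 (3315) exceeded gp91phox-/- replicate 1 (2733). Without p47phox-/- replicate 1 this difference was called (limma adjusted p = 0.0396). Psmb9 differed by 0.37 (95% interval 0.04 to 0.70, limma adjusted p = 0.146) and Tap1 by 0.31 (95% interval -0.01 to 0.62, limma adjusted p = 0.205).

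The log2 fold change was above 0 for 8 of the 10 genes and below 0 for H2-D1 and H2-K1. In H2-D1 each gp91phox-/- library (117433 to 132196 normalized counts) lay below each p47phox-/- library (137690 to 182072), as in 17.3% of all genes tested, with a log2 fold change of -0.41 (95% interval -0.83 to 0.00, limma adjusted p = 0.195). In B2m and Tap2 each gp91phox-/- library lay above each p47phox-/- library, as in 13.6% of all genes tested. The log2 fold change was 0.26 for B2m (95% interval -0.06 to 0.59, limma adjusted p = 0.296) and 0.23 for Tap2 (95% interval -0.08 to 0.54, limma adjusted p = 0.333). H2-K1 lay at -0.05 (95% interval -0.45 to 0.36, limma adjusted p = 0.901), Tapbp at 0.18, Psmb8 at 0.22 and Psmb10 at 0.10 (limma adjusted p of 0.395 to 0.799).

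The balance of immunoproteasome to constitutive subunits was read as a ratio of normalized counts within each library, which does not depend on the scaling between libraries. Psmb9 takes the place of Psmb6, Psmb8 that of Psmb5 and Psmb10 that of Psmb7. The ratio of Psmb9 to Psmb6 was 1.14, 1.24 and 1.17 in gp91phox-/-, 0.701, 0.809 and 0.713 in p47phox-/- and 0.692, 0.686 and 0.714 in WT. On the log2 scale this was 0.24 ± 0.06 in gp91phox-/-, -0.44 ± 0.11 in p47phox-/- and -0.52 ± 0.03 in WT (SD, n = 3 each). The gp91phox-/- libraries lay above all others, with a mean difference of 0.76 from WT and of 0.68 from p47phox-/-. The 2-sided exact permutation p was 0.1 for each, the smallest that 3 against 3 libraries allow, and 0.45 after Benjamini-Hochberg adjustment over the 9 ratio tests. p47phox-/- differed from WT by 0.08 (exact permutation p = 0.3, adjusted 0.675). Both genes of the ratio bear on it. Psmb6 had 2217 ± 267 normalized counts in gp91phox-/-, 2739 ± 219 in p47phox-/- and 2240.2 ± 178 in WT, and none of its differences was called.

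The other ratios showed no such separation. Psmb8 to Psmb5 was 4.80 to 5.31 in gp91phox-/-, 4.40 to 5.98 in p47phox-/- and 4.73 to 4.94 in WT, and the mean log2 differences were 0.04 for gp91phox-/- versus WT, 0.06 for p47phox-/- versus WT and -0.02 between the knockouts (exact permutation p of 0.6 to 0.8). Psmb10 to Psmb7 was 1.17, 0.905 and 1.30 in gp91phox-/-, 0.977, 1.24 and 0.848 in p47phox-/- and 0.968, 0.870 and 0.893 in WT. Its mean log2 difference was 0.29 for gp91phox-/- versus WT (exact permutation p = 0.2, adjusted 0.6) and 0.15 for p47phox-/- versus WT (exact permutation p = 0.6).

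**Figure D3:**
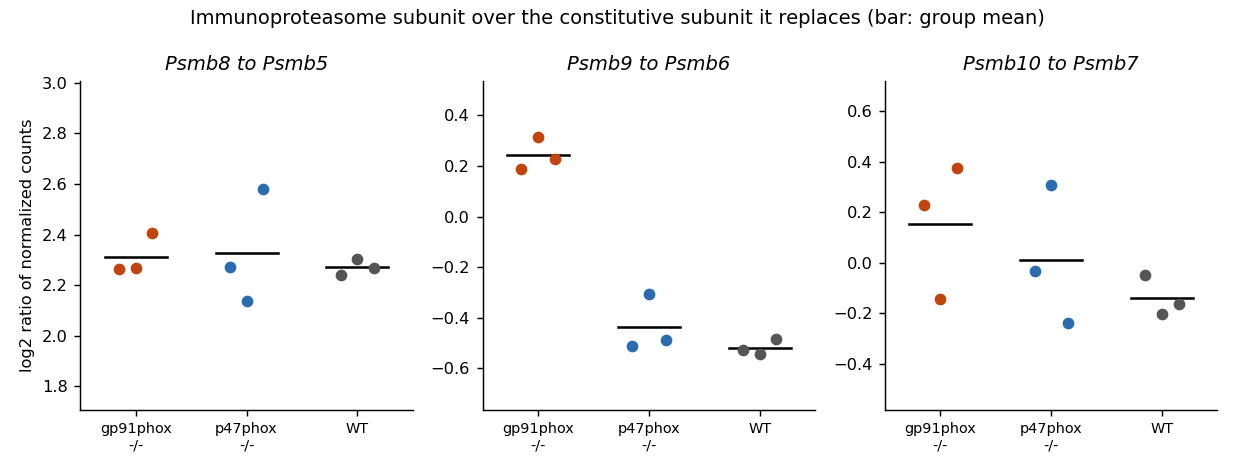
Log2 ratio of the normalized counts of each immunoproteasome subunit to the constitutive subunit it replaces, in each library of gp91phox-/-, p47phox-/- and WT; points are libraries and bars are group means (n = 3), and the 3 axes span the same range. In Psmb9 to Psmb6 the gp91phox-/- libraries (0.19 to 0.32) lie above all p47phox-/- and WT libraries, whose highest value is -0.31.

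The 4 neighbouring genes on chromosome 17 had unequal fold changes, whose differences from each other were not tested. In gp91phox-/- versus WT the log2 fold change was 0.75 for Psmb9 and 0.70 for Tap1, which share the promoter printed above, 0.38 for Psmb8 and 0.15 for Tap2. Over the 9 libraries Tap1 and Psmb9 were also the most alike of all 45 pairs of the 10 genes, with a Pearson r of 0.95 on the log2 scale. Psmb8 and Psmb10 (r = 0.93) came next, and Psmb8 and Psmb9 had an r of 0.90. The median r over the 45 pairs was 0.61 and the lowest, between H2-D1 and Nlrc5, was -0.15. These correlations describe 9 libraries that share 3 genotypes and 1 set of size factors. Tap1 and Psmb9 also overlap by 212 exonic bases. The strand that was counted is not stated, so how reads from these bases were assigned is not known.

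**Figure D4:**
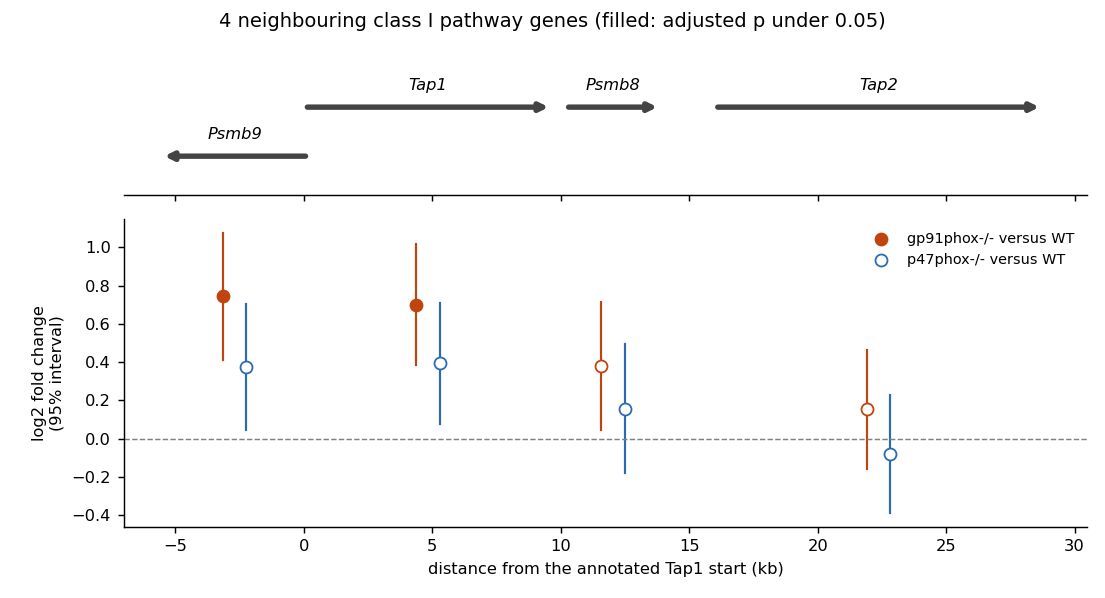
Upper panel, position and direction of the genes Psmb9, Tap1, Psmb8 and Tap2 by distance from the annotated Tap1 start (kb); lower panel, log2 fold change with its 95% interval for gp91phox-/- versus WT and p47phox-/- versus WT, drawn at each gene's middle (the pair is set slightly apart), filled where the limma adjusted p is under 0.05. The head-to-head genes Psmb9 and Tap1 have the larger fold changes and Tap2 the smallest in both comparisons.

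The mean of the 10 standardized log2 levels gave each library a class I profile value. It was -0.04, 1.15 and 0.97 in gp91phox-/-, -0.36, 0.48 and -0.02 in p47phox-/- and -0.14, -1.13 and -0.90 in WT. Each gp91phox-/- library lay above each WT library, and the p47phox-/- libraries overlapped those of both other genotypes. Of the 11040 genes outside the lists with a mean of at least 50 normalized counts, the 5 closest to this profile over the 9 libraries were Ly6e, a GPI-anchored surface protein (Pearson r = 0.97), Prdx2, a peroxiredoxin that reduces hydrogen peroxide (r = 0.95), Pnp, purine nucleoside phosphorylase (r = 0.95), Vamp5, a vesicle-associated membrane protein (r = 0.94), and Cd40, a costimulatory receptor (r = 0.94). Ly6e had 37163 ± 3106 normalized counts in gp91phox-/-, 31680.1 ± 2280.0 in p47phox-/- and 25158 ± 3562 in WT. Cd40 had 4710.0 ± 1209 normalized counts in gp91phox-/-, 3679 ± 552 in p47phox-/- and 2106 ± 285 in WT (SD, n = 3 each). These genes were picked for their likeness, so their levels are a description.

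Beyond the classical chains, 16 other class I and class I-like chains were tested. Over all genes tested, 2.53% were called higher in gp91phox-/- versus WT and 1.12% in either direction in p47phox-/- versus WT. Of the 16 chains, 4 rose in gp91phox-/- relative to WT and 0 fell, with a median log2 fold change of 0.43. edgeR called 4 of them and DESeq2 7, and limma with array weights called 8. H2-Q7, a Qa-2 chain, had 12657.5 ± 1804 normalized counts in gp91phox-/-, 11455 ± 890 in p47phox-/- and 6943 ± 738 in WT. It was called in both knockouts against WT, with a log2 fold change of 0.86 in gp91phox-/- (SE 0.14, limma adjusted p = 0.00286) and 0.72 in p47phox-/- (SE 0.14, limma adjusted p = 0.0299). H2-Q5, a nonclassical chain of the same region, had 3273 ± 72.9 normalized counts in gp91phox-/-, 3214 ± 228 in p47phox-/- and 1888 ± 319 in WT. It too was called in both, by 0.81 in gp91phox-/- (limma adjusted p = 0.00350) and 0.78 in p47phox-/- (limma adjusted p = 0.0176). In p47phox-/- these were the 2 of 16 chains called by limma, edgeR called 2 and DESeq2 called 6, and both calls were lost without p47phox-/- replicates 2 and 3 (limma adjusted p = 0.298 for H2-Q5 and 0.377 for H2-Q7). They were also lost without p47phox-/- replicate 3, WT replicate 2 or WT replicate 3 alone (limma adjusted p of 0.0861, 0.0615 and 0.106 for H2-Q5 and 0.123, 0.0923 and 0.143 for H2-Q7), and H2-Q7 without p47phox-/- replicate 2 (limma adjusted p = 0.0570). The call of H2-Q7 was lost too with array weights (limma adjusted p = 0.0774) and with no filter on low values (0.0544), and that of H2-Q5 when only p47phox-/- and WT entered the fit (0.0508).

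H2-M2, another nonclassical chain, had 2216 ± 619 normalized counts in gp91phox-/-, 1438 ± 269.7 in p47phox-/- and 774 ± 266 in WT, and rose in gp91phox-/- by 1.53 (limma adjusted p = 0.00442). Hfe, a class I-like protein of iron homeostasis that pairs with B2m, had 4120.0 ± 581 normalized counts in gp91phox-/-, 3297 ± 513 in p47phox-/- and 2624 ± 369 in WT. It rose in gp91phox-/- by 0.65 (limma adjusted p = 0.0273), a call lost without gp91phox-/- replicate 1 or 2 or without WT replicate 2 or 3 (limma adjusted p of 0.0839 to 0.105). Between the knockouts limma called 0 of the 16 chains, with 4 at an unadjusted p under 0.05 and 0 called by edgeR or DESeq2. Among all genes tested, limma called 9.93% there in either direction. H2-Q chains share sequence with H2-K1 and H2-D1, and how far their reads can be told apart by the authors' counting was not tested.

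Of the other regulators of class I transcription, Irf1 was higher in gp91phox-/- than in either WT or p47phox-/-. Irf1, which binds interferon response elements of class I genes, had 11380, 15564 and 13481 normalized counts in gp91phox-/-, 7759, 8162 and 9587 in p47phox-/- and 5404, 6229.6 and 5569 in WT. The 3 genotypes did not overlap in Irf1. It rose by 1.22 in gp91phox-/- versus WT (limma adjusted p = 0.000252) and by 0.66 in gp91phox-/- versus p47phox-/- (limma adjusted p = 0.0125). In p47phox-/- versus WT, at 0.57, limma did not call it (adjusted p = 0.0856), while DESeq2 did (0.55, adjusted p = 0.0182). The call of Irf1 between the knockouts was lost without gp91phox-/- replicate 2 (limma adjusted p = 0.0639) and without p47phox-/- replicates 2 and 3 (limma adjusted p = 0.0652).

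Ciita, the class II relative of Nlrc5, had 7177, 4932 and 3346 normalized counts in gp91phox-/-, 3095, 2985 and 3423 in p47phox-/- and 4433, 3195 and 4536 in WT. Its libraries overlapped in all comparisons and limma called none, with a log2 fold change of 0.29 in gp91phox-/- versus WT (limma adjusted p = 0.522), -0.34 in p47phox-/- versus WT (limma adjusted p = 0.509) and 0.64 in gp91phox-/- versus p47phox-/- (limma adjusted p = 0.106). Between the knockouts Ciita was called by DESeq2 (0.74, adjusted p = 0.0217) and by limma without gp91phox-/- replicate 3 (0.91, adjusted p = 0.0208). Of the 16 regulators tested, 2 were called higher in gp91phox-/- versus WT, Irf1 among them, and 0 lower. Over all genes tested 2.53% were called higher there. The median log2 fold change of the 16 was 0.18. edgeR called 2 of the 16 in that comparison, DESeq2 5 and limma with array weights 5. In p47phox-/- versus WT limma called 0 of the 16, with 3 at an unadjusted p under 0.05, 0 by edgeR and 1 by DESeq2. The share of all genes tested that was called in either direction was 1.12% there and 9.93% between the knockouts. Between the knockouts 3 of the 16 were higher in gp91phox-/-, among them Irf1 and Irf2 (0.48, limma adjusted p = 0.0245), and Nfkb1, a subunit of NF-kappa B, was lower (-0.58, limma adjusted p = 0.0429), while edgeR called 3 of the 16, DESeq2 7 and limma 0 without p47phox-/- replicates 2 and 3. The call of Irf2 was lost without p47phox-/- replicate 3 and without any 1 of the gp91phox-/- libraries (limma adjusted p of 0.0778 to 0.0792) and without p47phox-/- replicates 2 and 3 (0.193), and that of Nfkb1 in 17 of 23 other fits.

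The interferon-gamma receptor and response list was chosen with earlier results of these data known. Over all genes tested, 2.53% were called higher in gp91phox-/- versus WT. In either direction, 1.12% were called in p47phox-/- versus WT and 9.93% between the knockouts. Of the 18 genes of the list, 12 rose in gp91phox-/- relative to WT and 0 fell, with a median log2 fold change of 1.27. The 8 with the lowest adjusted p were the interferon-inducible GTPases Iigp1 (3.57), Igtp (1.31), Irgm2 (1.35), Gbp5 (1.88), Gbp4 (1.79) and Gbp3 (0.97) and the chemokines Cxcl9 (1.85) and Cxcl10 (1.43), with limma adjusted p of 5.2e-05 to 0.00214. In p47phox-/- versus WT 1 of the 18 was called, Iigp1, by 2.26 (limma adjusted p = 0.00848), a call lost without p47phox-/- replicates 2 and 3 (limma adjusted p = 0.111). Between the knockouts 10 of the 18 were higher in gp91phox-/-, led by Cxcl10 (1.49, limma adjusted p = 0.00147), and the count was 6 without gp91phox-/- replicate 2, 5 without gp91phox-/- replicate 3 and 4 without p47phox-/- replicates 2 and 3. Of the 15 genes of the type I interferon response list, limma called 0 in gp91phox-/- versus WT (1 without gp91phox-/- replicate 1), with 5 at an unadjusted p under 0.05, 0 by edgeR and 1 by DESeq2, and the median log2 fold change was 0.13. Between the knockouts 1 of the 15 was called, Ifit2, higher in gp91phox-/- (0.89, limma adjusted p = 0.0121), which was lost without p47phox-/- replicate 3 or without gp91phox-/- replicate 2 or 3 (limma adjusted p of 0.0504 to 0.0598) and without p47phox-/- replicates 2 and 3 (0.122). The count of this list between the knockouts was 2 by edgeR, with TMM scaling or with array weights, 3 by DESeq2 and 4 without gp91phox-/- replicate 1.

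For the rest of the peptide supply, counts of calls are set beside those over all genes tested. In either direction, 7.05% of all genes were called in gp91phox-/- versus WT, 1.12% in p47phox-/- versus WT and 9.93% between the knockouts. Of the 19 constitutive proteasome and activator genes limma called 0 in gp91phox-/- versus WT, with 8 at an unadjusted p under 0.05, 0 by edgeR and 4 by DESeq2, and the median log2 fold change was 0.34. Without gp91phox-/- replicate 1 limma called 3 of them, without p47phox-/- replicate 2 it called 1 and with array weights it called 8. In p47phox-/- versus WT limma called 0 of these 19, with 1 at an unadjusted p under 0.05 and 0 by edgeR or DESeq2. Of the 9 chaperone and peptide-trimming genes tested, 1 fell in gp91phox-/- versus WT, Sec61a1, a subunit of the translocation channel of the endoplasmic reticulum (-0.40, limma adjusted p = 0.0435). That call was lost without any 1 of the gp91phox-/- or WT libraries or p47phox-/- replicate 3 (limma adjusted p of 0.0641 to 0.149). It was lost too in edgeR (adjusted p = 0.0678), with TMM scaling (limma adjusted p = 0.0725), with recomputed size factors (0.0548) and with no filter on low values (0.0629), and DESeq2 made it. In p47phox-/- versus WT limma called 0 of the 9, with 4 at an unadjusted p under 0.05, 0 by edgeR and 3 by DESeq2, and the median log2 fold change was -0.36. Between the knockouts, Pdia3 (ERp57, a partner of tapasin in peptide loading) was higher in gp91phox-/- by 0.44 (limma adjusted p = 0.0406) and Uggt1, which sends misfolded glycoproteins back to the chaperones, by 0.51 (limma adjusted p = 0.0269). Both calls were lost without any 1 of the gp91phox-/- libraries or without p47phox-/- replicate 2 or 3 (limma adjusted p of 0.0618 to 0.126 for Pdia3 and 0.0570 to 0.0944 for Uggt1), and that of Pdia3 also without p47phox-/- replicate 1, WT replicate 1 or WT replicate 3 (0.0517 to 0.0605). Without p47phox-/- replicates 2 and 3 the limma adjusted p was 0.227 for Pdia3 and 0.319 for Uggt1, and with only the knockouts in the fit it was 0.0590 and 0.0585. The call of Pdia3 was lost with quantile normalization (limma adjusted p = 0.0620) and with no filter on low values (0.0988) as well. Of these 9 genes between the knockouts edgeR called 2, and DESeq2, limma with TMM scaling and limma without p47phox-/- replicate 1 called 4 each.

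Fits without the mean-variance trend lost the calls of H2-Q5, H2-Q7 and Iigp1 in p47phox-/- versus WT (limma adjusted p of 0.0782 to 0.120) and of Hfe (0.0995) and Sec61a1 (0.0923) in gp91phox-/- versus WT. Between the knockouts they lost those of Irf1 (0.0558), Ifit2 (0.0548), Pdia3 (0.0709), Uggt1 (0.0753) and Nfkb1 (0.114). Of the 18 interferon-gamma genes 6 were called there, with Gbp4 (0.0701), Cxcl9 (0.0792) and Iigp1 (0.108) among those lost. In gp91phox-/- versus WT some calls of that list were lost as well (limma adjusted p of 0.0523 to 0.120).

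**Figure D5:**
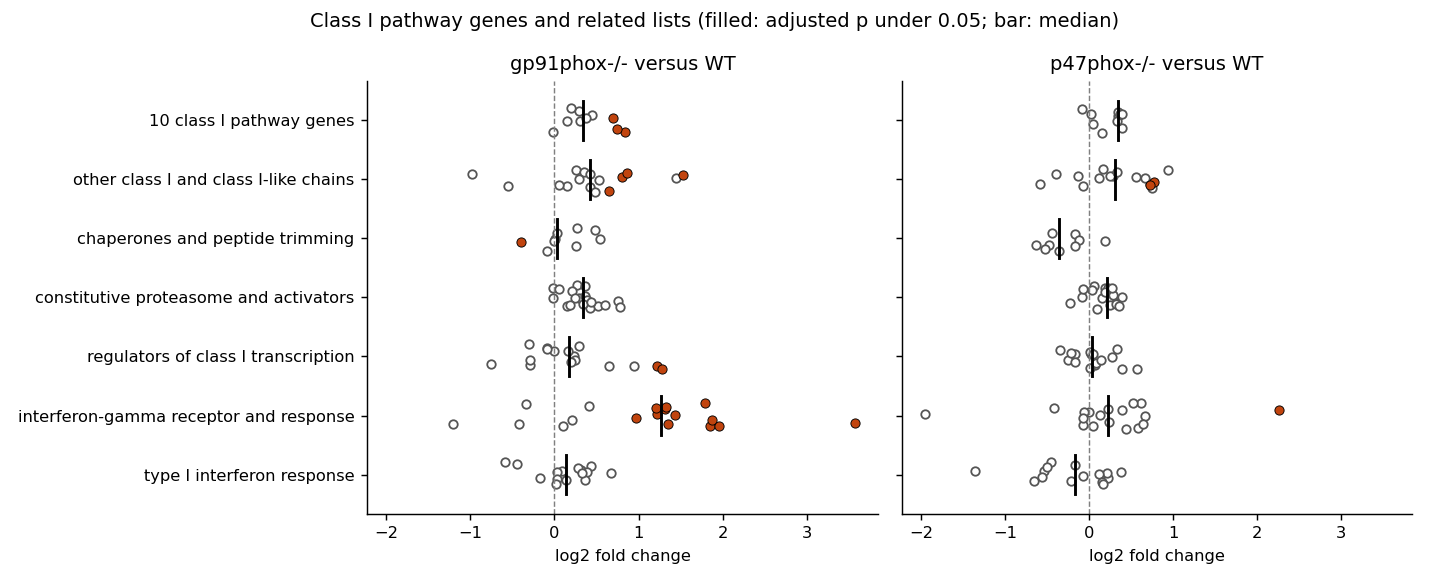
Log2 fold change of each tested gene of the 10 class I pathway genes and of 6 related lists, in gp91phox-/- versus WT (left) and p47phox-/- versus WT (right); each point is a gene, filled where the limma adjusted p is under 0.05, and the vertical bar is the list's median. In gp91phox-/- versus WT the interferon-gamma list lies farthest to the right, with a median of 1.27, and the type I interferon list has a median of 0.13.

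Of the 10 macrophage markers, limma called Fcgr1, a receptor for IgG, higher in gp91phox-/- than in WT (0.65, adjusted p = 0.0251). In p47phox-/- versus WT it called 0, with 4 at an unadjusted p under 0.05, 0 by edgeR and 1 by DESeq2. Of all genes tested, limma called 7.05% in gp91phox-/- versus WT and 1.12% in p47phox-/- versus WT, in either direction. Between the knockouts 4 of the 10 markers were called, beside 9.93% of all genes tested. Cx3cr1, the fractalkine receptor, had 19152 ± 5194 normalized counts in gp91phox-/-, 2184 ± 2492 in p47phox-/- and 4866 ± 749.5 in WT (SD, n = 3 each), and was higher in gp91phox-/- than in p47phox-/- by 3.74 (limma adjusted p = 0.00164). Itgam (0.79, limma adjusted p = 0.0363) and Fcgr1 (0.62, limma adjusted p = 0.0264) were higher too, and Cd68 was lower (-0.46, limma adjusted p = 0.0462). Marker calls, for these and for other cell types, were not repeated in the other fits, and their part in the class I results was not tested.

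Markers of other cell types moved between the groups alongside these results. Over all genes tested, 7.05% were called in gp91phox-/- versus WT and 1.12% in p47phox-/- versus WT, in either direction. All 9 of 9 B cell markers were lower in gp91phox-/- than in WT, with summed levels of 1989 to 2618 normalized counts in gp91phox-/-, 11906 to 19874 in p47phox-/- and 13713 to 23225 in WT. Ms4a1, Pax5 and Cr2 were at 0 in gp91phox-/- replicate 1. Plasma cell markers summed to 3246.5 to 5836 normalized counts in gp91phox-/-, 9404 to 17882 in p47phox-/- and 11209 to 26920.2 in WT, with 3 of 6 lower in gp91phox-/- than in WT. Dendritic cell markers summed to 1560.5 to 2214 in gp91phox-/-, 5058 to 6344 in p47phox-/- and 4331 to 7708 in WT, with 4 of 8 lower in gp91phox-/- than in WT. Fibroblast and smooth muscle markers summed to 9170 to 11042 in gp91phox-/-, 10330.5 to 17082 in p47phox-/- and 6184 to 8200 in WT, with 2 of 8 higher in gp91phox-/- than in WT and 3 of 8 higher in p47phox-/- than in WT. T cell markers summed to 114 to 182 in gp91phox-/-, 336 to 447 in p47phox-/- and 248 to 394 in WT, with up to 4 of 9 at 0 in a library. Of the 6 tested, 1 was called lower in gp91phox-/- than in WT, Lck (mean 20.7 against 137), and 5 were not called. Mean levels in gp91phox-/- and WT were 6.83 and 7.61 for Cd3e, 13.9 and 15.3 for Trac, and 9.01 and 6.30 for Trbc2. Those of Cd5 were 36.0 and 71.6, and those of Thy1 57.3 and 72.1. Ly6C monocyte markers summed to 5880 to 10029 in gp91phox-/-, 4557 to 4892 in p47phox-/- and 3636 to 7871 in WT. In such bulk samples fewer cells of a type and less RNA per cell cannot be told apart, and the part of these cells in the class I results was not tested.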

How the data were processed

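RNA from sorted colon macrophages was sequenced as paired-end libraries, 3 for each of 3 genotypes. Per the labels' protocols and the submitters' processing notes, bcl2fastq 2.19 made the reads, Cutadapt trimmed adapters, STAR 2.5.2b aligned the reads to mm10, featureCounts counted them per gene, and DESeq2 was used. The annotation and the strand that were counted are not stated. The values deposited by the authors are a signal, normalized counts. In each library 100% of them were whole multiples of a step (tolerance 0.01), which gave back whole reads and size factors of 1.05 to 1.66. The labels do not tie libraries to separate animals, so p-values reflect only the spread between these libraries, which may be technical.

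Genes with 10 or more normalized counts in 3 or more libraries (14404) were tested on log2(normalized count + 1) in limma 3.58.1 (R 4.3.3). The 3 genotypes shared 1 fit, with moderated variances that follow the mean level. The p-values were adjusted by Benjamini-Hochberg over all genes tested and called under 0.05. Fold changes on this scale understate those of low genes. Subunit ratios were compared by 2-sided exact permutation tests (scipy 1.17.1). Alternatives changed 1 choice at a time: the pseudocount, the filter, the scaling, the samples in the fit, a block for the replicate number, the variance trend, array weights, the tool (edgeR 4.0.16 or DESeq2 1.42.0, each run on recovered reads) and each library left out. A fit without p47phox-/- replicates 2 and 3 was added after seeing the data. The steps were tested on simulated data.

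The 10 genes and all lists were chosen with earlier results of these data known. The text names the 10 genes, from each other list the genes called in a comparison (at most 8 by adjusted p) with Irf1 and Ciita in any case, and the 5 genes most like the class I profile. One regulator is counted in its list but not reported here. Positions and exons come from GENCODE M21, and promoters from RefSeq (GRCm38.p6).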

Additional observations from a re-analysis of the deposited data

How the results depend on the processing

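Over 23 other fits, 0 of the 10 genes were called in p47phox-/- versus WT in each. In gp91phox-/- versus WT, where 3 were called, the count was 0 without the mean-variance trend, 5 with array weights (Psmb8 and Psmb10 in addition) and 0 to 3 with each library left out in turn, and it stayed at 3 in the other fits. Between the knockouts it was 0, and 0 to 1 with each library left out. Deviations of libraries with the same replicate number had correlations of -0.04 to 0.08, and those with different numbers -0.07 to 0.05. These values near 0 show no clear pairing by number but cannot exclude one. With the replicate block the counts were 3 in gp91phox-/- versus WT, 0 in p47phox-/- versus WT and 0 between the knockouts. The block thus changed no count of the 10 genes. With the block limma's calls of H2-Q7 in p47phox-/- versus WT (adjusted p = 0.0598), Sec61a1 in gp91phox-/- versus WT (0.0805), and Pdia3 (0.0759) and Nfkb1 (0.0615) between the knockouts were lost, and 1 constitutive proteasome gene was called in gp91phox-/- versus WT. Over all genes tested the count of calls was 515 to 2319 in gp91phox-/- versus WT (1016 as reported), 12 to 688 in p47phox-/- versus WT (162 as reported) and 442 to 2264 between the knockouts (1430 as reported, 572 higher and 858 lower in gp91phox-/-, against 879 higher and 707 lower with TMM scaling). TMM scaling moved the median of all genes in gp91phox-/- versus p47phox-/- to 0.11 (log2). The higher ratio of Psmb9 to Psmb6 in gp91phox-/- than in WT or p47phox-/- kept its sign in every fit run for it, and the small differences of Psmb8 to Psmb5 did not.

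Log2 fold changes that changed sign were all of differences that were not called. In p47phox-/- versus WT, B2m came to -0.069 with quantile normalization, -0.043 without p47phox-/- replicates 2 and 3 and -0.028 to 0.095 with each library left out. Tapbp came to -0.021 with TMM scaling, -0.047 with quantile normalization, -0.0078 in edgeR, -0.0029 in DESeq2 and -0.053 to 0.10 with each library left out. Tap2 ranged from -0.19 to 0.045 with each library left out, and Psmb8 came to -0.020 without p47phox-/- replicates 2 and 3. In gp91phox-/- versus WT, H2-D1 came to 0.024 with TMM scaling and -0.13 to 0.10 with each library left out. Between the knockouts, H2-K1 came to 0.042 with TMM scaling, 0.059 with array weights, 0.0033 in edgeR, 0.13 without p47phox-/- replicates 2 and 3 and -0.14 to 0.043 with each library left out, and Psmb10 ranged from -0.028 to 0.33 with each library left out. The cause of these changes was not tested.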
